A study of Rattus norvegicus with 15 samples.

Results

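Secretory and membrane proteins enter the endoplasmic reticulum (ER) through a protein channel, fold there with the help of chaperones and disulfide isomerases, and leave in coated vesicles. The unfolded protein response is the signalling system that raises the genes of this machinery when unfolded proteins build up in the ER. In the testis, the Sertoli, Leydig and peritubular cells secrete hormones, fluid and matrix, while developing spermatids build the acrosome, a secretory granule, through the same route. The genes described here belong to that route. They were chosen by a rule on gene symbols, with earlier results of these data known. The rule took the Pdia, Sec, Ssr, Spcs, Srp, Tmed and Cop families with numbered or lettered members, the lectin chaperones Calr and Canx, P4hb, the ribophorins Rpn1 and Rpn2, the KDEL receptors Kdelr1, Kdelr2 and Kdelr3, and the response factors Xbp1, Atf4, Atf6 and Ddit3. The rule found 70 of 14218 genes, read by 105 of 31042 probe sets.

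The testes came from LBNF1 rats, an F1 hybrid laboratory strain, aged 25 to 27 weeks. The irradiated group held 5 samples, from rats whose lower abdomen received 6 Gy, and the control group held 10 samples, which the source field places before irradiation. The titles call the samples biological replicates without saying that each was a separate rat, and the labels hold no time since irradiation, so a p-value here weighs a difference against the scatter of these samples only. RNA from the whole organ was hybridised to Affymetrix 3' arrays, on which short probes near the 3' end of a transcript give 1 log2 signal per probe set.

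Irradiated testes differed from control testes over most of the array. The correlation between arrays across tested probe sets lay between 0.958 and 0.972 within the irradiated group, between 0.918 and 0.960 within the control group, and between 0.219 and 0.277 across the groups. Markers of meiotic and later germ cells were far lower in irradiated testes. All 7 tested spermatocyte markers fell and were below the array's median signal in every irradiated array, where their summed signal was 0.979 to 1.24, against 82.5 to 121 in control arrays. All 12 tested markers of elongating spermatids fell, with sums of 2.08 to 4.87 in irradiated arrays and 418 to 621 in control arrays. Of 6 spermatogonial markers, 3 were higher and 1 lower (sums of 7.05 to 9.89 in irradiated arrays, 5.84 to 7.13 in control arrays). Somatic markers were mostly higher: 11 of 11 for Sertoli cells (117 to 164 in irradiated arrays, 27.4 to 36.2 in control arrays), 10 of 10 for Leydig cells (96.4 to 117 against 7.67 to 11.6) and 7 of 8 for peritubular cells (26.2 to 35.1 against 8.07 to 10.9). Of 10 macrophage markers 8 were higher and 2 lower, and of 8 endothelial markers 7 were higher and 1 lower. Lymphocyte markers were divided, with 2 of 5 higher and 3 lower (sums of 3.17 to 3.63 in irradiated arrays, 3.04 to 3.92 in control arrays). In whole-organ RNA, fewer cells of a type and less RNA per cell cannot be told apart, and the part of this change of cells in the values below was not tested.

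In 3 control arrays, replicates 6, 7 and 8, the signal of actin probes at the 3' end exceeded that at the 5' end by 1.38 to 1.89 log2 units, a measure that grows when RNA is broken or copied incompletely. It was 0.903 to 1.16 in the 5 irradiated arrays and 0.652 to 1.05 in the other 7 control arrays. Of the 67 tested genes described here, 14 (20.9%) had their 3 lowest control values in exactly those arrays, where 5.15% of all tested genes did. They were Canx, Copa, Copg2, Pdia6, Rpn2, Sec13, Sec24b, Sec63, Spcs3, Srp9, Ssr1, Tmed10, Tmed2 and Tmed4. This holds for each gene's brightest probe set, and other probe sets of the same gene can differ. At a dimmer Sec63 probe set those arrays read -1.11, -0.51 and -0.88, the 3 highest control values. At the dimmer Tmed4 probe set control replicate 6 was the highest control (2.05). Without those arrays the counts given next were 46 higher and 14 lower genes, the added one being Rpn2.

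Probe sets with a signal at or above the array median in 5 or more of the 15 arrays were tested with limma, each gene was read from its brightest probe set, and a call is an adjusted p under 0.05 over all 10841 genes tested. Of the 67 genes tested, 59 passed (88.1%, against 85.6% of all genes). In that number 46 were higher in irradiated testes (68.7%, against 47.7% of all genes) and 13 were lower (19.4%, against 37.9% of all genes). The other 8 did not pass the test. Their median change was 0.81 log2 units, irradiated minus control, which was 0.605 above the 0.20 of all genes tested. A measured change of at least 2-fold was called for 28 higher genes (41.8%, against 31.9% of all genes) and for 3 lower genes (4.48%, against 22.8% of all genes). For 3 of the 28, Tmed1, Kdelr3 and Copz2, the control signal was below the array's median and the bound was under 2-fold, which leaves 25. Bounds were not applied to the 31.9% of all genes, so that share compares with the 28 and not with the 25. In 38 genes every irradiated array lay above every control array (56.7%, against 40.5% of all genes), and in 8 genes every irradiated array lay below (11.9%, against 29.0% of all genes). At the level of probe sets, 64 of the 95 tested were higher and 18 lower, where 49.0% and 34.3% of all tested probe sets were. Pdia2, Tmed6 and Sec14l3 were below the median of all 15 arrays and were not tested.

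**Figure D1:**
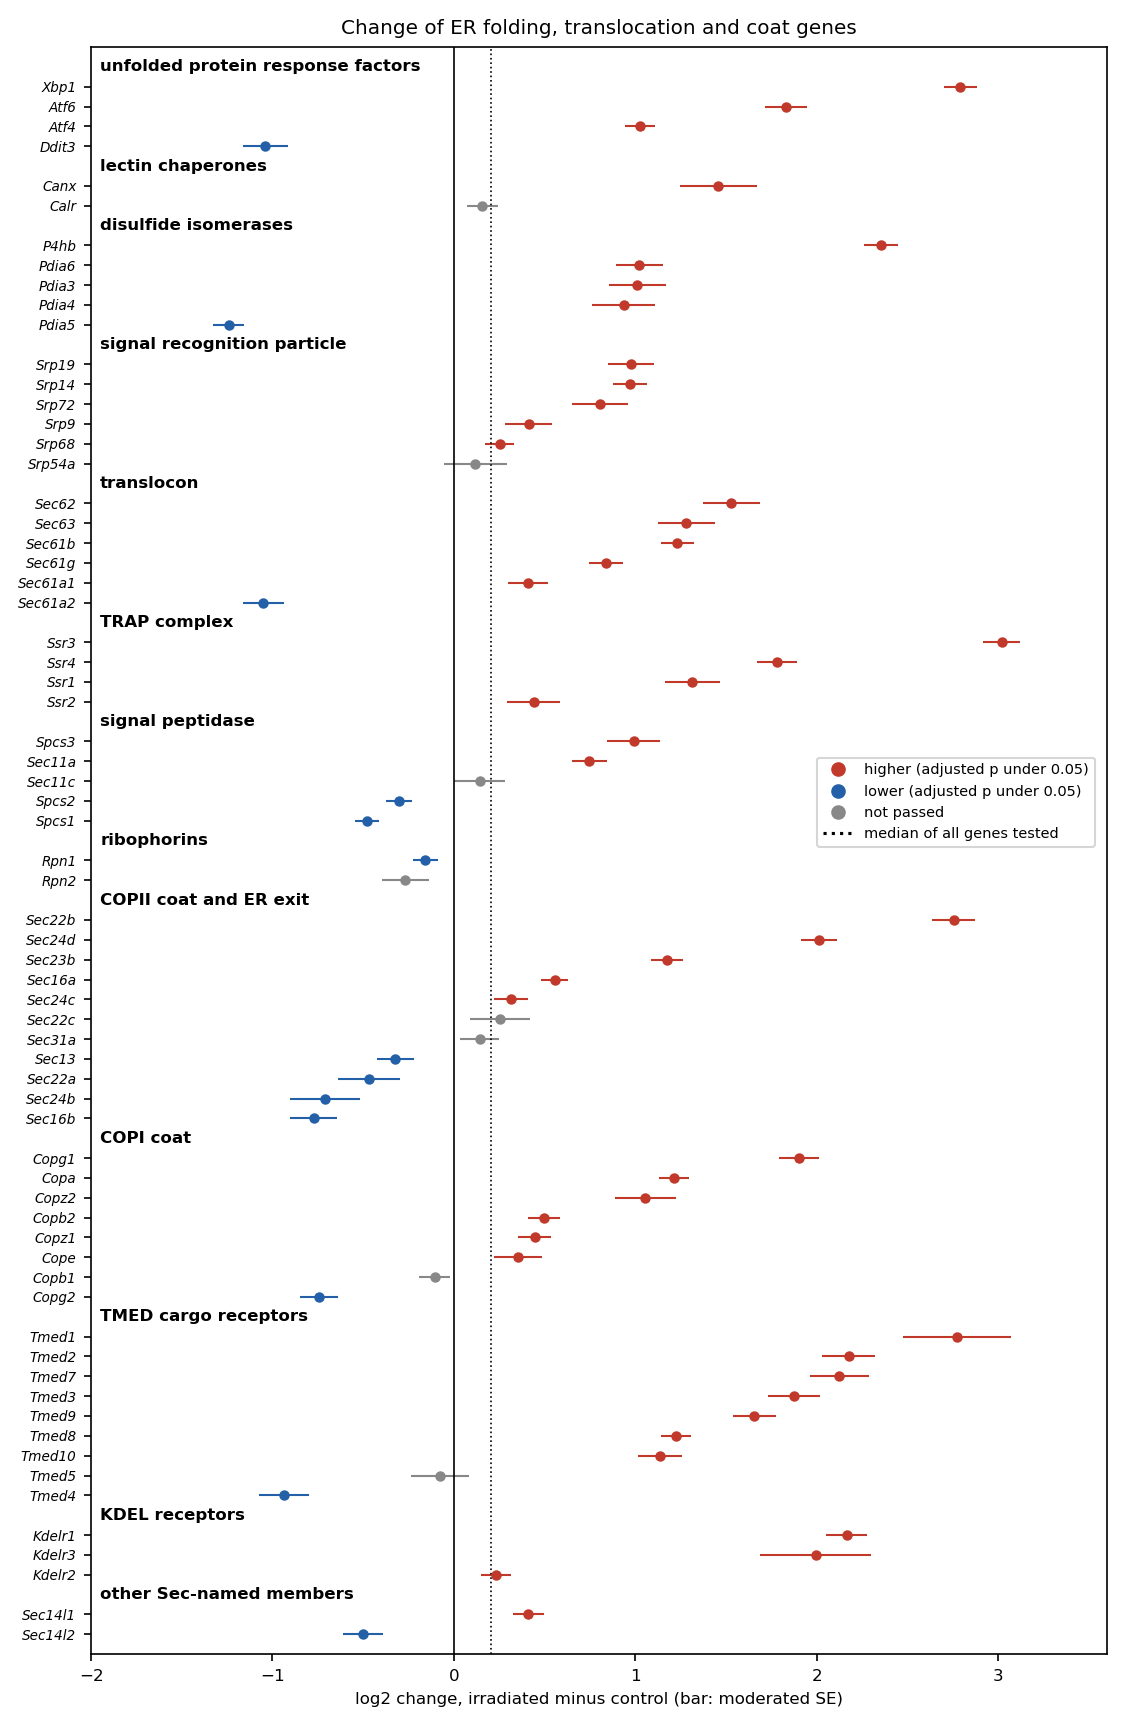
Log2 change, irradiated minus control, of the 67 tested genes, grouped by role, with the moderated standard error as a bar. Points right of 0 are higher in irradiated testes: 46 red genes passed upward, 13 blue genes passed downward and 8 grey genes did not pass. The dotted line is the median of all genes tested, 0.20. Tmed1, Kdelr3, Copz2 and Sec16b are drawn at their measured change although 1 group was below the array's median on average.

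Of the 4 response factors, Xbp1, Atf6 and Atf4 were higher in irradiated testes and Ddit3 was lower. Xbp1 is the factor whose messenger RNA is spliced when unfolded proteins accumulate, and it maintains secretory capacity in glandular cells. Its signal was 2.94, 2.73, 2.88, 3.01 and 2.78 in the irradiated arrays, against a lowest, median and highest value of -0.18, 0.12 and 0.24 in the control arrays. The groups lay far apart, and the change was 2.79 ± 0.09 (SE), or 6.92-fold (limma, adjusted p = 2.61e-14). The probe set reads total Xbp1 transcript and does not tell the spliced form from the unspliced one. Atf6, a membrane-bound factor that is cut in the Golgi when the ER is stressed, had signals of 1.75, 1.82, 1.84, 1.79 and 1.94 in irradiated arrays, against -0.33, 0.03 and 0.35 in control arrays as lowest, median and highest. All irradiated arrays were above all control arrays, by 1.83 ± 0.11 on average (3.56-fold, adjusted p = 1.32e-10). A second, dimmer Atf6 probe set had a measured change of -0.29 with a limma adjusted p of 0.094 over probe sets, and its irradiated mean was below the array's median.

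Atf4 is translated when protein synthesis is slowed by phosphorylation of eIF2 alpha, and drives amino acid supply genes. It had signals of 1.94, 1.81, 1.68, 1.78 and 1.89 in irradiated arrays, against 0.62, 0.78 and 1.09 in control arrays as lowest, median and highest, without overlap (change 1.02 ± 0.08, 2.03-fold, adjusted p = 4.28e-09). Ddit3 encodes CHOP, a factor linked to cell death under prolonged stress, and is a known target of Atf4. Its signals in irradiated arrays were -0.04, -0.09, -0.55 and -0.04 in replicates 2 to 5 and just under 0 in replicate 1, against 0.60, 0.95 and 1.16 in control arrays. Every irradiated array was below every control array, and Ddit3 fell by 1.04 on the log2 scale (SE 0.13, adjusted p = 7.77e-07).

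**Figure D2:**
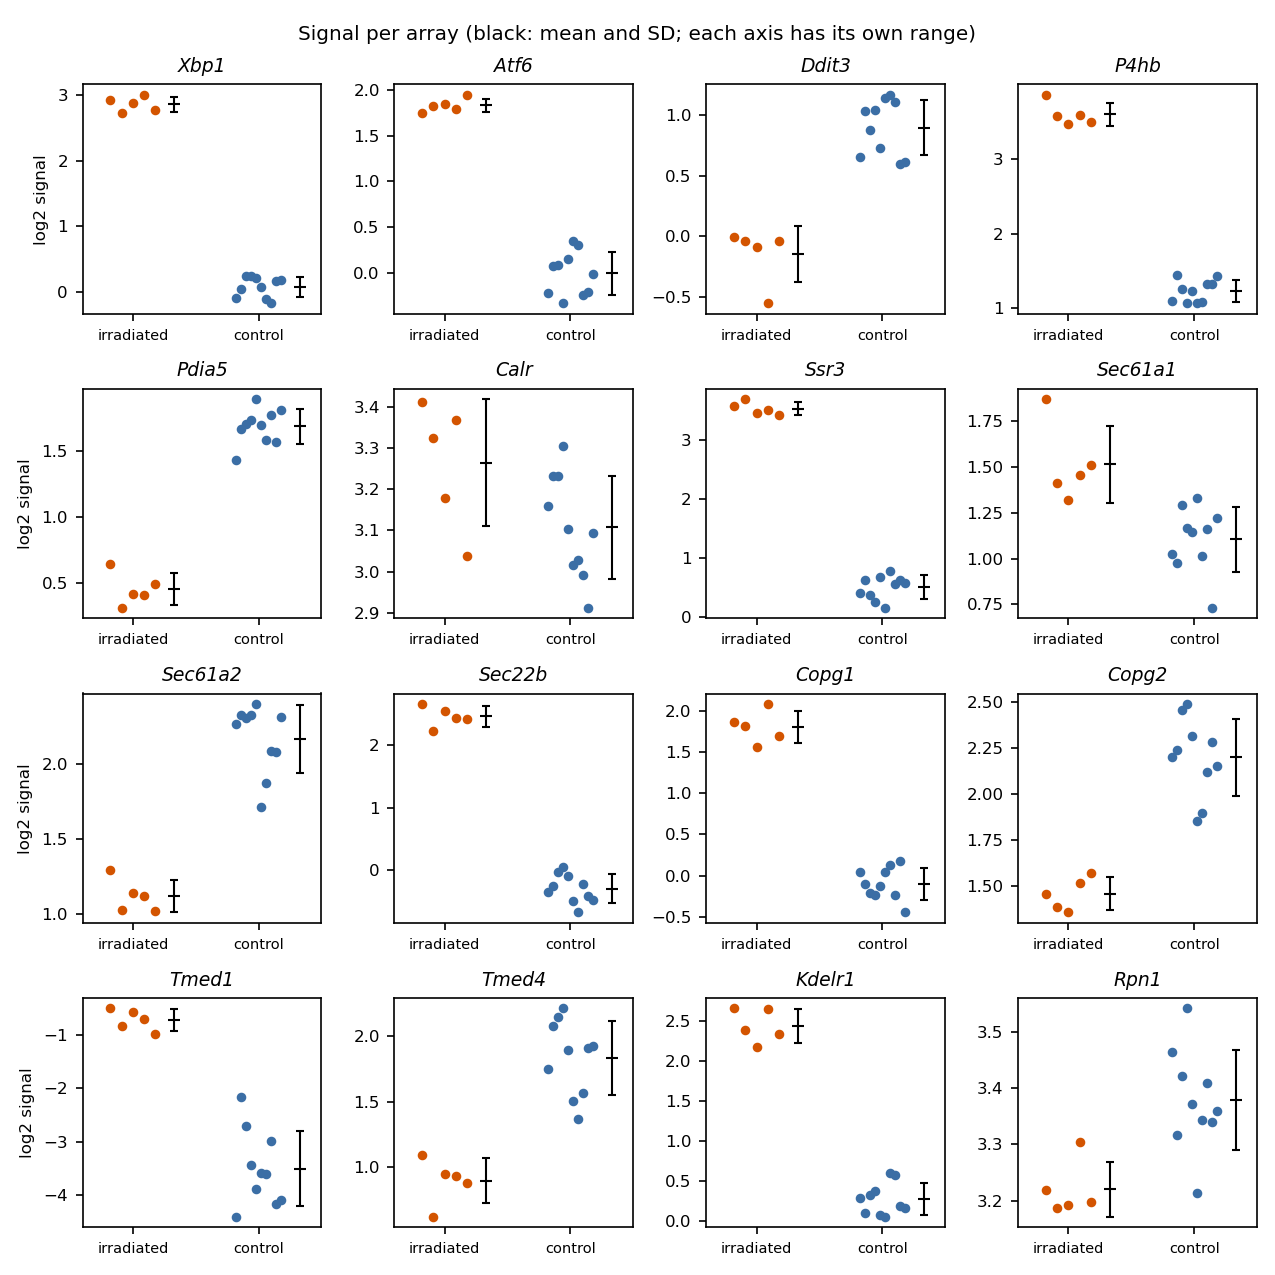
Log2 signal of 16 genes in each array, irradiated arrays on the left in orange and control arrays on the right in blue, with the mean and SD in black. Each panel has its own axis range, so heights are not comparable between panels. Xbp1, Atf6, P4hb, Ssr3, Sec22b, Copg1, Tmed1 and Kdelr1 are higher in every irradiated array than in any control array, Ddit3, Pdia5, Sec61a2, Copg2 and Tmed4 are lower in every one, and Calr, Sec61a1 and Rpn1 overlap.

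The promoters of these genes were searched for the sequences that such factors are known to read. The ER stress response element (ERSE), CCAAT and CCACG with 9 bases between them, is bound by ATF6 or XBP1 together with NF-Y. The window ran from 250 bases before to 50 bases after each RefSeq start site on GRCr8, both strands were read, and 62 of the 70 genes had an entry. The full element lay in 0.0657% of all 33469 promoters (0.0765% of genes) and in the promoters of 3 of the 62 genes (4.84%), namely Xbp1, Canx and Calr. The element is named for ER stress, so its share among ER genes is a description and not a test. Among the other pathway genes it lay in 5 of 112, which were Creld2, Dnajc3, Ero1b, Hsp90b1 and Hspa5. The sequences of 5 of these promoters are shown because genes that carry the same element had different changes in the irradiated testes. Capitals mark the fixed letters of the element, which stand in reverse in Calr, and each sequence runs 5′ to 3′ on the gene's strand. Counted from the start site, the element lay at -65 to -47 in Xbp1 (chr14:84604538-84604596, plus strand), at -230 to -212 in Canx (chr10:35158049-35158107, minus strand) and at -232 to -214 in Calr (chr19:40213117-40213173, plus strand). It lay at -43 to -25 in Hspa5 (chr3:38452953-38453011, plus strand), and at -176 to -158 in Hsp90b1 (chr7:23012431-23012489, minus strand), whose promoter held a second match closer to the start.
Xbp1: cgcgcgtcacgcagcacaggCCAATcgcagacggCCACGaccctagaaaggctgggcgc
Canx: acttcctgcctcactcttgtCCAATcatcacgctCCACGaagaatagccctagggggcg
Calr: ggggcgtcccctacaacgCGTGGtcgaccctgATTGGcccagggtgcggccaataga
Hspa5: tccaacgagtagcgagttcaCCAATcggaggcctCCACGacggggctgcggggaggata
Hsp90b1: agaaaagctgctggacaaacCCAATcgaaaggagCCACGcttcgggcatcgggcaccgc

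Of the genes with these 5 promoters, Xbp1 was 2.79 and Canx 1.46 higher in irradiated testes, Calr (0.16) and Hspa5 (0.048) did not pass the test, and Hsp90b1 fell by 0.40. Creld2, with the same element, fell by 3.17. Ero1b, which also holds it, had a change of at most -1.36, and Dnajc3 (0.045) did not pass. Of the 5 other pathway genes with the element, 0 were higher, 3 were lower and 2 did not pass. A second element, ERSE-II (ATTGG and CCACG with 1 base between them), lay in none of the 62 genes (0 matches), against 0.0508% of all promoters (0.0619% of genes). It lay in 3 of the 112 other pathway genes, where Dnajb11, a co-chaperone of Hspa5, fell by 0.85, Herpud1, a membrane protein of ER-associated degradation, rose by 0.48 and Hyou1, a large chaperone of the Hsp70 kind, did not pass (0.35). The core of the unfolded protein response element, TGACGTG, lay in 7 of the 62 genes (11.3%), against 1.81% of all promoters (2.02% of genes). They were Copa, Copb1, Copb2, Kdelr3, Sec16a, Srp19 and Ssr4, and 6 of the 7 were higher in irradiated testes while Copb1 had a change of -0.11 and did not pass. The same core lay in 15 of the 112 other pathway genes, of which 7 were higher, 5 were lower and 3 did not pass. The share of higher genes was 47.7% over the whole array and 68.7% over the 67 tested genes chosen by symbol. Sec16a counts as higher by its brightest probe set, while its other probe set fell by 0.51. The cyclic AMP response element TGACGTCA lay in 1 of the 62, Cope, against 1.83% of all promoters (2.00% of genes). A match is a run of letters and not a measured binding site, and the shares of genes with a match were not tested. The core is shown in capitals for 3 genes with different roles, as TGACGTG in Sec16a (chr3:29662468-29662498, minus strand) and as its reverse complement, CACGTCA, in Kdelr3 (chr7:112959520-112959550, plus strand) and Copb2 (chr8:108040666-108040686, plus strand).
Sec16a: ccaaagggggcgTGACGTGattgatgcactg
Kdelr3: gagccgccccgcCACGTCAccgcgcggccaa
Copb2: tcccggaagttcCACGTCAgt

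Calr and Canx encode calreticulin and calnexin, the soluble and the membrane-bound lectin that hold newly made glycoproteins until their sugars are trimmed. Canx was higher and Calr did not pass the test. Canx had signals of 3.25, 2.90, 3.22, 3.09 and 2.95 in irradiated arrays, against 0.71, 1.84 and 2.06 in control arrays as lowest, median and highest. The groups did not overlap, and the change was 1.46 ± 0.21 (2.75-fold, adjusted p = 6.76e-06). The low control values were those of replicates 6, 7 and 8, and without them the change of Canx was 1.17 (adjusted p = 2.51e-08). Calr had signals of 3.41, 3.32, 3.18, 3.37 and 3.04 in irradiated arrays, against 2.91, 3.10 and 3.30 in control arrays. These ranges overlapped, and the difference of 0.16 ± 0.09 had an adjusted p of 0.102. Calr passed after quantile normalization (0.33, adjusted p = 0.00049) and without irradiated replicate 5 (0.21, adjusted p = 0.0375).

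The 3 Canx probe sets did not respond alike to the control arrays with the large actin difference. At the brightest, control replicates 6, 7 and 8 read 0.96, 0.71 and 1.18, against 1.75 to 2.06 in the other control arrays. At the dimmest they read -0.28, -1.14 and -1.47, against 0.36 to 1.14. At the one between them they read 1.31, 1.60 and 1.55, inside the 1.26 to 1.80 of the others. That last probe set gave a change of 1.31, and the brightest gave 1.46. The dimmest also passed (0.90, limma adjusted p = 0.035), but its change includes the low values of control replicates 6, 7 and 8. Its irradiated arrays read 0.84 to 1.44, which overlapped the other control arrays, and its change without those replicates is not given here. Tmed2, a cargo receptor described further on, had the same pattern at both of its probe sets: 0.53, 0.42 and 0.75 against 1.07 to 1.25 at the brighter, and -1.16, -1.33 and -1.08 against -0.27 to 0.23 at the dimmer.

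**Figure D3:**
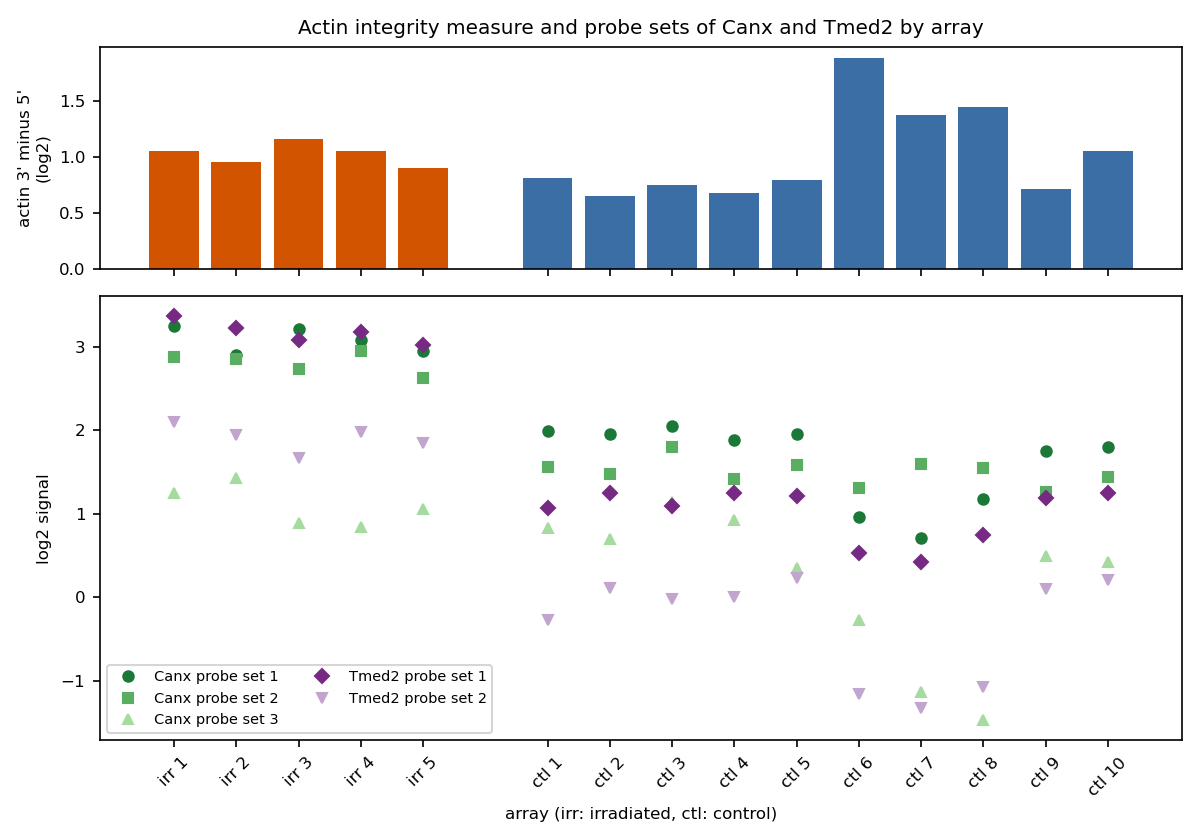
Top, bars of the actin 3' minus 5' difference in log2 units for each array, irradiated arrays first and control arrays after them; control replicates 6, 7 and 8 have the 3 tallest bars, 1.38 to 1.89. Bottom, log2 signal of 3 Canx and 2 Tmed2 probe sets in the same arrays, numbered by falling brightness, where 4 of the 5 drop in those control arrays and the second Canx probe set stays between 1.26 and 1.80 in the control group.

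The protein disulfide isomerases form and rearrange the disulfide bonds of folding proteins. Of the 5 tested, 4 were higher and Pdia5 was lower. P4hb, the main isomerase and also a subunit of collagen prolyl hydroxylase, had signals of 3.85, 3.57, 3.46, 3.59 and 3.48 in irradiated arrays, against 1.07, 1.24 and 1.45 in control arrays as lowest, median and highest. The groups were widely separated (change 2.36 ± 0.09, 5.12-fold, adjusted p = 3.1e-13). Pdia3, the isomerase that works with Calr and Canx on glycoproteins, had 4.67, 4.25, 4.30, 4.50 and 3.80 in irradiated arrays, against 2.80, 3.32 and 3.63 in control arrays, a change of 1.01 ± 0.16 (2.01-fold, adjusted p = 1.37e-05). Its second probe set gave 0.32. Pdia6 had 2.74, 2.66, 2.46, 2.73 and 2.64 in irradiated arrays, against 1.21, 1.71 and 2.06 in control arrays (change 1.02 ± 0.13, adjusted p = 1.62e-06).

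Pdia4 had 0.91, 0.96, 0.50, 0.90 and 0.58 in irradiated arrays, against -1.02, -0.13 and 0.31 in control arrays, and the change was 0.94 ± 0.17 (adjusted p = 9.89e-05). For none of these 4 isomerases did the groups overlap. Pdia5 went the other way, with 0.64, 0.31, 0.41, 0.40 and 0.49 in irradiated arrays, against 1.43, 1.71 and 1.90 in control arrays. It fell by 1.24 ± 0.09 on the log2 scale, or 2.37-fold (adjusted p = 5.23e-10), which was the largest fall among the 67 genes.

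The signal recognition particle is the ribonucleoprotein that stops a ribosome at a signal sequence and brings it to the ER. Of its 6 protein genes, 5 were higher, none lower (0), and Srp54a did not pass; the median change was 0.61. Srp19, which helps assemble the particle's RNA, had 1.39, 1.41, 1.40, 1.14 and 1.29 in irradiated arrays, against -0.17, 0.33 and 0.83 in control arrays, without overlap (change 0.98 ± 0.13, adjusted p = 1.54e-06). Srp14, part of the domain that slows translation, had a mean of 2.85 ± 0.15 in irradiated arrays and 1.87 ± 0.16 in control arrays (SD, n = 5 and 10), a change of 0.97 (adjusted p = 5.57e-08 by limma). Srp72 rose by 0.81 (adjusted p = 0.000118), with irradiated replicate 4 at 0.90, inside the control range. The smaller differences were those of Srp9 (0.41, adjusted p = 0.00709) and Srp68 (0.25, adjusted p = 0.00747), and the groups overlapped in both. With each array centred on its median, neither of these passed (adjusted p = 0.0678 for Srp9 and 0.304 for Srp68). Srp54a, the GTPase subunit that reads the signal sequence, had changes of 0.12 and 0.082 at probe sets that did not pass. Another, dimmer than the brightest and with a control mean below the array's median, passed with a change of at least 1.015. With the mean of its probe sets Srp54a was higher by 0.46 (limma, adjusted p = 0.00829).

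The translocon is the membrane channel through which the chain enters the ER, made of an alpha, a beta and a gamma Sec61 subunit, with Sec62 and Sec63 beside it. Of these 6 genes, 5 were higher and Sec61a2 was lower. Sec62 had 3.00, 2.52, 2.70, 2.61 and 2.73 in irradiated arrays, against 0.59, 1.22 and 1.84 in control arrays (change 1.53 ± 0.16, 2.89-fold, adjusted p = 8.55e-08). Sec63, a J-domain protein that recruits the chaperone Hspa5 to the channel, was higher by 1.28 ± 0.16 (adjusted p = 9.76e-07), and its probe sets ranged between 0.49 and 2.07. Sec61b, the beta subunit, had 2.67, 3.02, 2.85, 2.96 and 2.99 in irradiated arrays, against 1.40, 1.66 and 1.94 in control arrays, clear of each other (change 1.23 ± 0.09, 2.35-fold, adjusted p = 1.46e-09). Sec61g, the gamma subunit, was higher by 0.84 ± 0.09 (adjusted p = 2.63e-07).

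Read from their brightest probe sets, the paired genes of the alpha subunit, which forms the pore itself, moved in opposite directions. Sec61a1 had 1.87, 1.42, 1.32, 1.46 and 1.51 in irradiated arrays, against 0.73, 1.15 and 1.33 in control arrays. The lowest irradiated array lay just inside the control range, and the change was 0.41 ± 0.11 (adjusted p = 0.00226), with -0.11 at a second probe set. After quantile normalization (0.17, adjusted p = 0.0888) and with the mean of both probe sets (0.15) Sec61a1 did not pass. Sec61a2 had 1.29, 1.03, 1.14, 1.12 and 1.02 in irradiated arrays, against 1.71, 2.29 and 2.40 in control arrays. All irradiated arrays were lower, and Sec61a2 fell by 1.05 ± 0.11 on the log2 scale (adjusted p = 1.76e-07).

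The translocon-associated protein (TRAP) complex sits next to the channel and helps some chains to enter. All 4 of its genes were higher, with a median change of 1.55. Ssr3, the gamma subunit, had the largest change of the 67 genes. Its signal was 3.58, 3.68, 3.46, 3.51 and 3.42 in irradiated arrays, against 0.16, 0.58 and 0.78 in control arrays. The gap between the groups was wider than either group's range, and the change was 3.02 ± 0.10, or 8.11-fold (adjusted p = 4.72e-14), with probe sets ranging between 1.02 and 3.02. Ssr4, the delta subunit, had 2.47, 2.36, 2.11, 2.46 and 2.26 in irradiated arrays, against 0.20, 0.57 and 0.90 in control arrays, also without overlap (change 1.78 ± 0.11, 3.44-fold, adjusted p = 1.42e-10). Ssr1, the alpha subunit, was higher by 1.31 ± 0.15 (adjusted p = 4.62e-07), although its dimmer probe set fell by 0.72. With the mean of both, the change of Ssr1 was 0.30 and did not pass (adjusted p = 0.0501). Ssr2, the beta subunit, rose by 0.44 ± 0.15 (adjusted p = 0.0103), and its groups overlapped. With each array centred on its median, Ssr2 did not pass (0.29, adjusted p = 0.0858).

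Signal peptidase removes the signal sequence once the chain is inside, and its 5 genes were split. Spcs3, an accessory subunit needed for activity in yeast, had 2.14, 1.86, 1.88, 1.91 and 2.00 in irradiated arrays, against 0.48, 1.05 and 1.38 in control arrays (change 0.99 ± 0.15, adjusted p = 8.62e-06). Sec11a, one of the paired catalytic subunits, was higher by 0.75 ± 0.10 (adjusted p = 1.67e-06), while the other, Sec11c, had a change of 0.14 and an adjusted p of 0.345. Spcs1, a small accessory subunit, had 3.50, 3.32, 3.22, 3.39 and 3.27 in irradiated arrays, against 3.74, 3.81 and 3.92 in control arrays. Its groups did not overlap despite the small difference, and it fell by 0.48 ± 0.07 (adjusted p = 5.07e-06). Spcs2 fell by 0.30 ± 0.07 (adjusted p = 0.00087), also without overlap.

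Rpn1 and Rpn2, the ribophorins, are subunits of the enzyme that attaches N-linked sugars. Neither was higher. Rpn1 had 3.22, 3.19, 3.19, 3.31 and 3.20 in irradiated arrays, against 3.21, 3.37 and 3.54 in control arrays, and fell by 0.16 ± 0.07 (adjusted p = 0.0407), with overlap. After quantile normalization its change was 0.015 and did not pass, and the call was also lost without control replicate 1, 3, 4, 5 or 8 or irradiated replicate 1, 2, 3 or 5 (adjusted p 0.0528 to 0.0801). Rpn2 had a change of -0.27 (adjusted p = 0.0649), and without control replicates 6, 7 and 8 it was -0.41 (adjusted p = 0.00164). Rpn2 was also called lower after quantile normalization (-0.31) and with each array centred on its median (-0.42).

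COPII is the coat of the vesicles that leave the ER, with Sec23 and Sec24 as the inner layer, which picks the cargo, and Sec13 and Sec31 as the outer cage; Sec16 marks the exit sites and the Sec22 proteins act in membrane fusion. Of these 11 genes, 5 were higher, 4 were lower and 2 did not pass, and their median change of 0.25 was 0.051 above that of all genes. Sec22b, the vesicle fusion protein of this step, had 2.66, 2.23, 2.55, 2.43 and 2.42 in irradiated arrays, against -0.68, -0.30 and 0.04 in control arrays. The groups were far apart (change 2.75 ± 0.12, 6.75-fold, adjusted p = 8.59e-13), and its probe sets lay between 2.46 and 2.75. Sec24d, a cargo adaptor needed for collagen export in zebrafish, had 1.39, 1.02, 1.17, 1.33 and 1.33 in irradiated arrays, against -0.97, -0.74 and -0.51 in control arrays, again without overlap (change 2.01 ± 0.10, 4.04-fold, adjusted p = 4.94e-12). Sec23b, its inner-coat partner, was higher by 1.18 ± 0.09 (2.26-fold, adjusted p = 1.21e-09).

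The other genes of the Sec24 and Sec22 families did not share these values. Sec24c was higher by 0.31 (adjusted p = 0.00505) with -0.16 at a second probe set. It did not pass after quantile normalization (0.14), with each array centred on its median (0.16), with the mean of its probe sets (0.076) or with the replicate block (0.17). Sec24b was lower by 0.71 ± 0.19 on the log2 scale (adjusted p = 0.00267). Sec24b had 0.51, 0.08, 0.02, 0.44 and 0.25 in irradiated arrays, against 0.40, 1.13 and 1.47 in control arrays, with control replicates 6, 7 and 8 the lowest of the controls, and it fell by 0.93 without them. A second Sec24b probe set averaged -1.07 in irradiated arrays and -3.60 in control arrays but reached the median in too few arrays to be tested. Sec22a fell by 0.47 (limma, adjusted p = 0.0168) with overlap, a call lost without irradiated replicate 3 (adjusted p = 0.0507). Sec22c had a change of 0.25 that did not pass (limma, adjusted p = 0.161). Its second probe set (at least 0.24) and the mean of both (0.42, adjusted p = 0.0127) did pass. In the outer cage, Sec13 fell by 0.32 (limma, adjusted p = 0.00805), and Sec31a had a change of 0.14 that did not pass (adjusted p = 0.231). A dimmer Sec31a probe set passed with a change of at most -0.33, and the mean of both gave -0.22 (adjusted p = 0.0393).

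Of the exit-site scaffolds, Sec16a was higher by 0.56 ± 0.07 (adjusted p = 2.03e-06), but its second probe set fell by 0.51, and the mean of both had a change of 0.024 that did not pass (adjusted p = 0.714). Sec16b had -1.69, -1.61, -1.64, -2.16 and -1.64 in irradiated arrays, against -1.42, -0.94 and -0.73 in control arrays. It was below the array's median in every irradiated array, so only a bound can be given, and it was at least 1.26-fold lower (adjusted p = 2.84e-05).

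COPI is the coat of the vesicles that return proteins to the ER from the Golgi, built of several kinds of subunit. Of its 8 genes, 6 were higher, Copg2 was lower and Copb1 did not pass. Copg1, a gamma subunit, had 1.86, 1.82, 1.56, 2.08 and 1.69 in irradiated arrays, against -0.45, -0.11 and 0.17 in control arrays. Its groups were well separated (change 1.90 ± 0.11, 3.73-fold, adjusted p = 5.35e-11), and its other probe set gave 1.85. Copg2, the second gamma gene, had 1.46, 1.39, 1.35, 1.51 and 1.57 in irradiated arrays, against 1.85, 2.22 and 2.49 in control arrays. All irradiated arrays were lower here, and Copg2 fell by 0.74 ± 0.11 (adjusted p = 5.18e-06). A dimmer Copg2 probe set had a change of -0.18 that did not pass, and its mean was below the array's median in both groups. Read from their brightest probe sets, the paired gamma genes thus changed in opposite directions.

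Copa, the alpha subunit that binds retrieval signals, averaged 3.40 ± 0.15 in irradiated arrays and 2.19 ± 0.11 in control arrays (SD, n = 5 and 10), a change of 1.21 ± 0.08 (SE; 2.31-fold, adjusted p = 4.41e-10 by limma). Copb2, the beta prime subunit, rose by 0.50 (adjusted p = 5.93e-05), Copz1, a zeta subunit, by 0.44 (adjusted p = 0.000222) and Cope, the epsilon subunit, by 0.35 (adjusted p = 0.0202). Cope did not pass without irradiated replicate 4 (adjusted p = 0.0607) or after quantile normalization (0.016). Copz2, the second zeta gene, had a control mean below the array's median, and its change was at least 0.89 (adjusted p = 1.69e-05). Copb1, the beta subunit, had a change of -0.11 and an adjusted p of 0.261, but was called lower after quantile normalization (-0.30, adjusted p = 0.00101) and with each array centred on its median (-0.26, adjusted p = 0.0135).

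The TMED proteins are the p24 cargo receptors that cycle between ER and Golgi and carry, among others, proteins with a lipid anchor. Of the 9 tested, 7 were higher, and their median change of 1.66 was 1.45 above that of all genes. Tmed2 had 3.37, 3.23, 3.08, 3.19 and 3.02 in irradiated arrays, against 0.42, 1.14 and 1.25 in control arrays. The groups did not overlap (change 2.18 ± 0.15, 4.52-fold, adjusted p = 3.48e-10), and without control replicates 6, 7 and 8 the change was 1.99. Tmed10, its partner in the p24 complex, had 3.63, 3.27, 3.18, 3.26 and 3.18 in irradiated arrays, against 1.82, 2.12 and 2.53 in control arrays (change 1.14 ± 0.12, 2.2-fold, adjusted p = 1.51e-07).

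Tmed7 had 2.19, 1.73, 2.10, 1.96 and 2.09 in irradiated arrays, against -0.80, -0.06 and 0.46 in control arrays (change 2.12 ± 0.16, 4.36-fold, limma adjusted p = 2.1e-09). A dimmer Tmed7 probe set was higher by at least 0.64, and its groups overlapped. Tmed3 was higher by 1.88 ± 0.14 (adjusted p = 1.93e-09) and Tmed9 by 1.66 ± 0.12 (adjusted p = 7.61e-10). Tmed8 was higher by 1.22 ± 0.08 (adjusted p = 2.98e-10). At the brightest probe set of each of these genes the irradiated arrays lay above the control arrays. Tmed1 had -0.51, -0.85, -0.58, -0.70 and -0.99 in irradiated arrays, against -4.40, -3.59 and -2.16 in control arrays. It was below the median of every control array, which makes it at least 1.67-fold higher (adjusted p = 1.71e-07).

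Tmed4 was the exception that passed in the other direction. It had 1.09, 0.62, 0.95, 0.94 and 0.88 in irradiated arrays, against 1.37, 1.90 and 2.21 in control arrays, and both of its probe sets were lower. At its brightest probe set Tmed4 fell by 0.94 ± 0.14 (limma, adjusted p = 7.03e-06). Without control replicates 6, 7 and 8, the lowest controls at that probe set, it fell by 1.09. The other probe set fell by 1.04, and there control replicate 6 was the highest control. Tmed5 had a change of -0.078 that did not pass (adjusted p = 0.654).

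The KDEL receptors bind escaped ER chaperones in the Golgi and send them back in COPI vesicles. All 3 were higher, but by different amounts. Kdelr1 had 2.66, 2.38, 2.17, 2.65 and 2.34 in irradiated arrays, against 0.05, 0.24 and 0.60 in control arrays, with a wide gap between the groups (change 2.17 ± 0.11, 4.49-fold, adjusted p = 1.34e-11). Kdelr2 had 3.06, 2.82, 2.63, 2.85 and 2.81 in irradiated arrays, against 2.46, 2.58 and 2.79 in control arrays. These overlapped, and the change of 0.23 ± 0.08 (adjusted p = 0.0147) was close to the 0.20 by which the median of all genes was shifted. Kdelr2 did not pass without irradiated replicate 1 (adjusted p = 0.0592) or with each array centred on its median (0.075, adjusted p = 0.4). Kdelr3 had -0.63, -0.76, -0.67, -0.63 and -1.09 in irradiated arrays, against -3.94, -2.60 and -1.67 in control arrays, where it was below every array's median, and it was at least 1.64-fold higher (adjusted p = 1.23e-05).

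Sec14l1 and Sec14l2 entered by their names and are lipid-binding proteins that resemble a yeast phospholipid transfer protein. Sec14l1 was higher by 0.41 (limma, adjusted p = 0.000236). Its second tested probe set was below the median in every irradiated array and fell by at least 0.27. Sec14l1 had no call with the mean of both (-0.077) or after quantile normalization (0.10). Sec14l2 fell by 0.50 (limma, adjusted p = 0.000471). Among the 23 genes with more than 1 tested probe set, Sec14l1, Sec16a and Ssr1 had probe sets that passed in opposite directions, as 16.9% of all such genes did, and the direction given for these 3 is that of the brightest probe set.

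The other genes of the pathway were taken from lists of 141 genes, of which 136 were named on the array and 132 were tested. In them 74 were higher (56.1%, against 47.7% of all genes) and 36 lower (27.3%, against 37.9% of all genes), with a median change of 0.38. Of 12 tested sensors and targets of the unfolded protein response, 10 were higher (83.3%) and 2 lower (16.7%), with a median of 1.58. Hspa5 and Creld2, which ER stress also raises, are counted in the list of ER chaperones and folding enzymes below. Atf3, a stress-induced transcription factor, was at least 1.64-fold higher in irradiated testes (adjusted p = 4.35e-09), since all its control values were below the median. Eif2s1, which encodes eIF2 alpha, the translation factor that the sensor kinase Eif2ak3 (PERK) phosphorylates, fell by 2.24 ± 0.09 (adjusted p = 4.01e-13). Of 17 tested genes of ER-associated degradation, which removes misfolded proteins, 6 were higher (35.3%) and 9 lower (52.9%), with a median of -0.49. Ube2j1, the ubiquitin-conjugating enzyme of that route, had 0.96, -0.04, 0.44, -0.07 and 0.35 in irradiated arrays, against 4.18, 4.41 and 4.78 in control arrays, and fell by 4.10 ± 0.15 (adjusted p = 9.02e-14). Edem1, a mannosidase-like protein that hands glycoproteins to degradation, was higher by at least 2.34 (adjusted p = 6.79e-11).

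Of 36 other ER chaperones and folding enzymes tested, 21 were higher (58.3%, against 47.7% of all genes). In the same list 7 were lower (19.4%, against 37.9% of all genes) and 8 did not pass. Hspa5 (BiP), the central chaperone of the ER and the usual readout of the unfolded protein response, had 3.87, 3.68, 3.73, 3.72 and 3.51 in irradiated arrays, against 3.28, 3.67 and 3.84 in control arrays. The ranges overlapped almost fully, and the change was 0.048 ± 0.09 (adjusted p = 0.621). After quantile normalization Hspa5 was 0.22 higher (adjusted p = 0.0199), and with each array centred on its median the value was -0.11. Hsp90b1 (GRP94), its partner, fell by 0.40 ± 0.10 without overlap (adjusted p = 0.00127). Sdf2l1, which works with Hspa5, had 0.27, -0.05, 0.15, 0.03 and 0.29 in irradiated arrays, against 3.42, 3.56 and 3.66 in control arrays, and fell by 3.40 ± 0.08 (adjusted p = 3.19e-16). Creld2, another stress-inducible ER protein, fell by 3.17 ± 0.11 (adjusted p = 3.61e-14). Fkbp10, a collagen chaperone, was below the median in every control array and was at least 10.1-fold higher in irradiated testes (adjusted p = 1.07e-07). Dnajc3, a co-chaperone of Hspa5, had a change of 0.045 (adjusted p = 0.757), and after quantile normalization it was lower (-0.28, adjusted p = 0.0343). Ero1b, an oxidase that recharges the isomerases, had a change of at most -1.36 (adjusted p = 4.03e-07).

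The testis has its own forms of these chaperones. Calr3, the calreticulin of male germ cells, had -1.50, -1.46, -1.68, -1.77 and -1.64 in irradiated arrays, against 0.54, 0.85 and 1.10 in control arrays. It was below the median in every irradiated array and at least 4.42-fold lower there (adjusted p = 4.24e-13), while the difference in Calr was 0.16 and did not pass. Pdilt and Clgn were not analysed here. Of 23 tested genes of targeting and N-glycosylation, 11 were higher (47.8%, against 47.7% of all genes) and 7 lower (30.4%, against 37.9%). Ostc, a subunit of the sugar-attaching enzyme, was higher by at least 1.76 (adjusted p = 9.07e-10), and Get3, which delivers tail-anchored proteins, fell by 1.30 ± 0.11 (adjusted p = 5.31e-09). Of 43 genes of ER to Golgi traffic, 26 were higher (60.5%) and 10 lower (23.3%). Bet1, a fusion protein that works with Sec22b, was higher by 2.19 ± 0.12 (adjusted p = 1.37e-11), and Gbf1, the exchange factor that starts COPI coating, fell by 2.23 ± 0.21 (adjusted p = 2.4e-08).

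**Figure D4:**
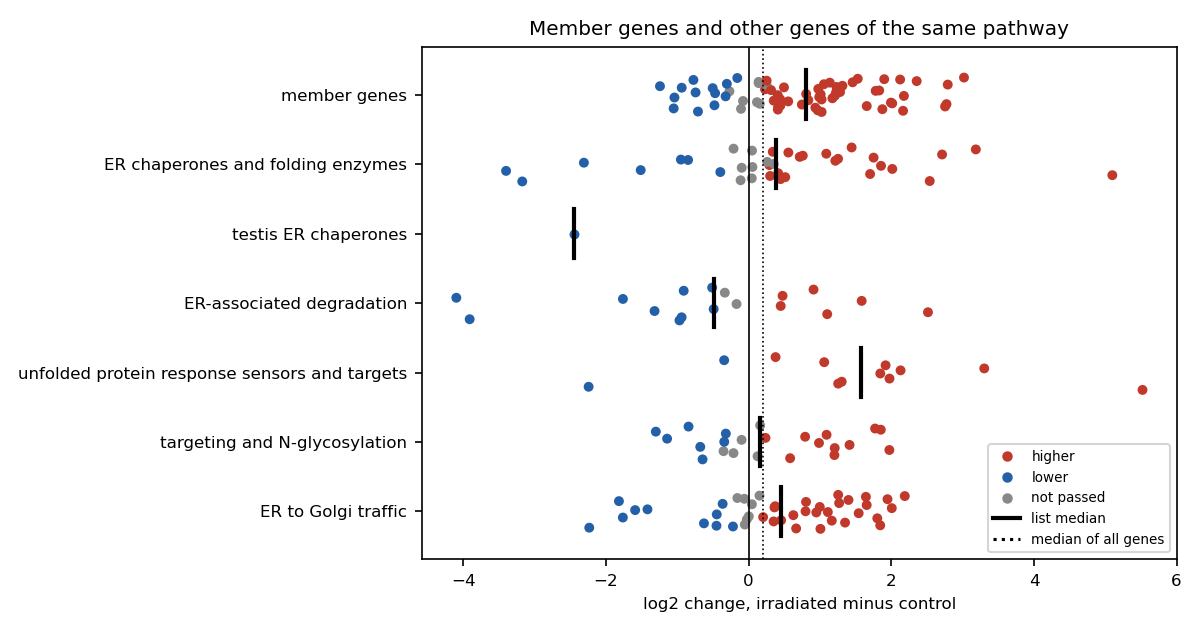
Log2 change, irradiated minus control, of each tested gene, in 1 row for the genes chosen by symbol and 1 row for each list of other pathway genes, with red for higher, blue for lower and grey for not passed. The black bar is the list's median: 0.81 for the genes chosen by symbol, 1.58 for response sensors and targets, and -0.49 for ER-associated degradation. The dotted line is the median of all genes, 0.20.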

How the data were processed

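Gene expression was measured on 15 arrays, 5 irradiated and 10 control. The table the authors deposited has a log2 signal for each of 31099 probe sets on each array, and MAS5 is the tool that the submitters' processing notes name. The log2 scale was read from the values, where the signal of the hybridisation spike-ins rose by 0.928 (irradiated) and 0.893 (control) log2 units per doubling. Scaling and zero point are not given in the sources used here. No per-sample column was left unused (0), and no pair of arrays was identical (0). Probe sets took gene names from GEO's platform annotation of 2016. The 57 control probe sets were left out; of all probe sets, 20832 had 1 symbol, 436 several and 9831 none. Probe sets at or above the array's median in at least 5 arrays were kept (18711).

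Differences were tested on the deposited log2 values with limma (3.58.1, run in R 4.3.3) through its lmFit and eBayes functions, two-sided, with Benjamini-Hochberg adjustment over all tested probe sets or over all 10841 genes; the test was tried on simulated data first. The plan had allowed for linear values with a pseudocount, which was not needed. A gene below the array's median in every array of 1 group was given as a bound: the brighter group's mean against the higher of median and own value in the dimmer group; where only a mean was below it, the change is "at least" or "at most". The number of arrays limits the precision.

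The members, gene lists and tests were chosen with earlier results of these data known. Named were, in each class, the largest rise and fall, a set of core genes, and the largest rise and fall of each pathway list; the remaining members were added to account for each. Motif counts used RefSeq promoters on GRCr8. Alternatives were quantile normalization, median centring, 2 other filters, a floor, a trended variance, the mean of probe sets, a replicate block and leaving out arrays.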

Additional observations from a re-analysis of the deposited data

Results flagged for a closer look

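In 14 of 188 groups of arrays examined (each named gene in each treatment group), 1 array lay far from the others by Dixon's criterion, where chance gives about 1 in 20. Irradiated replicate 4 stood apart for Ddit3 (-0.55, nearest other array -0.09), Rpn1 (3.30, nearest 3.22), Sec16b (-2.16, nearest -1.69) and Srp72 (0.90, nearest 1.58). Other irradiated arrays stood apart for Srp54a (replicate 2 at 0.13, nearest 0.84), Fkbp10 (replicate 2 at 1.42, nearest 1.92), Sec22a (replicate 3 at -0.65, nearest -0.35), Ero1b (replicate 3 at -1.85, nearest -1.42) and Tmed10 (replicate 1 at 3.63, nearest 3.27). Control replicate 6 was lowest for Pdia4 (-1.02, nearest -0.40) and Sec23b (0.34, nearest 0.59), and control replicate 7 for Sec13 (1.77, nearest 2.03) and Hspa5 (3.28, nearest 3.63). Control replicate 2 was highest for Ppib (1.42, nearest 1.10).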

How the results depend on the processing

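Under all alternatives the counts stayed within 1.5 times those reported: 40 to 46 of the genes chosen by symbol were higher and 11 to 15 lower. Their median relative to all genes was 0.45 with the mean of a gene's probe sets and 0.48 with the replicate block, against 0.61 as reported. Leaving out 1 array at a time gave 0.55 to 0.69, with 43 to 46 genes higher and 11 to 14 lower. Of 94 named genes, 73 kept their side of the threshold throughout, and of 2220 values 35 lost and 21 gained a call. The sign turned in 15 values that passed under neither setting, of Dnajc3, Hspa5, Sec11c, Sec22c, Sec31a, Srp54a and Tmed5. A call was lost or gained with a turned direction for Rpn1 (0.015) and Dnajc3 (-0.28) after quantile normalization, and for Sec14l1 (-0.077) and Sec31a (-0.22) with the mean of probe sets; the cause was not tested. Quantile normalization placed the median of all genes at -0.06, and there Calr (0.33, adjusted p = 0.00049 by limma) and Hspa5 (0.22, adjusted p = 0.0199) passed, Copb1 (-0.30) and Rpn2 (-0.31) were called lower, and Sec61a1, Sec24c, Srp9, Cope and Sec14l1 lost their calls. With the mean of probe sets, Sec16a, Ssr1, Sec24c and Sec61a1 lost their calls, and Sec22c and Srp54a gained one. Rpn1 lost its call without control replicate 1, 3, 4, 5 or 8 or irradiated replicate 1, 2, 3 or 5, Kdelr2 without irradiated replicate 1, Sec22a without irradiated replicate 3 and Cope without irradiated replicate 4. Hyou1 passed without control replicate 3 or irradiated replicate 3 or 5, Calr without irradiated replicate 5 (adjusted p = 0.0375), and Rpn2 without control replicate 6 or 7 or irradiated replicate 4. Shared replicate numbers did not pair the arrays (correlation of same-numbered deviations -0.047 to 0.069, and only replicate 5 correlated best with its own number); with the replicate block, 42 genes were higher and 13 lower. Among the genes chosen by symbol, signals below the array's median limit the brightest probe sets of Tmed1, Kdelr3, Copz2 and Sec16b to bounds, and also some dimmer probe sets.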

Other observations

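Other genes of the pathway, chosen after their values were seen, had changes as large as those of the genes above. All of these picks were rises at their brightest probe sets, whereas 36 of the 132 tested genes of the lists were lower. Among the 36 ER chaperones and folding enzymes tested, 7 were lower. Of the sensors of the unfolded protein response, Eif2ak3 (PERK, the kinase that phosphorylates eIF2 alpha) was below the median of every control array and at least 2.16-fold higher in irradiated testes (adjusted p = 3.12e-09 by limma). Mbtps1, the protease that cuts Atf6 in the Golgi, was higher by 1.92 (adjusted p = 1.35e-11), and Creb3, a membrane-bound factor of the Atf6 kind, by at least 3.18 (adjusted p = 1.39e-14). Ppp1r15a (GADD34), which reverses the phosphorylation of eIF2 alpha, was higher by 2.13 (adjusted p = 3.77e-10), whereas Ddit3 fell by 1.04. Among folding enzymes, Serpinh1 (HSP47, a collagen chaperone) was higher by at least 2.97 (adjusted p = 9.79e-11), Txndc5 by 2.54 (adjusted p = 1.94e-14) and Ppib, a prolyl isomerase that also acts on collagen, by 1.86 (adjusted p = 5.39e-11). Sar1a, the GTPase that starts COPII coating, was higher by 1.80 (adjusted p = 2.5e-12) at its brightest probe set and had a change of -0.18 at another. In the same arrays the tested fibroblast and matrix markers, 7 of 7 higher, had summed signals of 46.7 to 59.0 in irradiated arrays and 3.59 to 4.88 in control arrays; their part in these values was not tested.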
